A study of Mus musculus with 46 samples.

Results

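The genes described here encode meiotic cohesin and the synaptonemal complex: Smc1b, Stag3, Rec8, Hormad1, Sycp2, Sycp3, Sycp1, Syce1, Syce2 and Tex11. They were chosen by name from the probe annotation, with the brightest probe set kept for each, and all 10 were found among the 19938 genes measured. Hormad1 alone had 2 probe sets. Their levels were read in 23 mouse cell lines on 46 whole-transcript arrays. Germline stem (GS) cells, spermatogonial stem cells grown in culture, carried high levels of Smc1b, Stag3, Sycp1, Sycp2 and Tex11, and each of these was lower in every ES, iPS and mGS line. Syce2 stayed between 1983 and 3042 in all 23 lines. Among the pluripotent lines derived from GS cells, those labelled Dnmt mGS, made with a knock-down of Dnmt1 and p53, held the highest mean levels of Smc1b, Stag3, Sycp1, Syce1 and Hormad1. In 1 of these 3 lines Dnmt1 itself was not lower.

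Cohesin is a ring that holds sister chromatids together. In germ cells that enter meiosis, part of it is replaced by meiotic subunits: SMC1B in place of SMC1A, REC8 or RAD21L in place of RAD21, and STAG3 in place of STAG1 or STAG2. These rings lie along the chromosome axis with HORMAD1, SYCP2 and SYCP3. SYCP1 then links the axes of paired homologous chromosomes like the teeth of a zipper, with SYCE1 and SYCE2 in its centre, and TEX11 acts at sites of crossing-over. Many of these genes are known to be transcribed in spermatogonia before meiosis starts. In somatic and embryonic stem cells such germline genes are known to be held silent by DNA methylation, which DNMT1 maintains, and by repressor complexes that contain E2F6, MGA and MAX.

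GS cells (3 lines) were grown on mouse embryonic fibroblast feeders in StemPro-34 medium that contained GDNF and bFGF. The spontaneous mGS cells (multipotent germline stem cells, 2 lines) had arisen in GS cultures. The 4 induced routes, with 3 lines each, started from GS cells and used lentivirus to knock down p53 together with Dnmt1 (Dnmt mGS) or Dmrt1 (Dmrt mGS), or to knock down p53 and add Sox2 (Sox2 mGS) or Oct4 (Oct4 mGS). iPS cells (lines 1, 2 and 5) carried retroviral Oct4, Sox2, Klf4 and c-myc. All of these were of the DBA/2 strain with a GFP transgene. The ES cells were R1 (a hybrid of 129 substrains), B6-6 (C57BL/6J) and BRC1 ((B6xDBA2)x129), so cell type and strain cannot be told apart for ES. All pluripotent lines were kept on feeders with serum and LIF, so cell type and medium cannot be told apart for GS. A level is an intensity on a linear scale, given as the mean of the 2 cultures of a line, n counts lines, and a group mean is the geometric mean of its lines.

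Olfactory receptor genes, 1027 in number and silent in most tissues, had a median intensity of 64.9. Their 95th percentile of 161 served as the background level, and below it a level is a bound and not a measurement. The 9 GS markers, such as Zbtb16, Ret and Gfra1, summed to between 39220 and 45840 in GS lines and between 1859 and 3702 elsewhere. The 7 pluripotency markers summed to between 958 and 1040 in GS lines and to at least 12380 elsewhere. Dnmt1 stood at 620.0 and 647 in Dnmt mGS 1 and 3 but at 2752 in the line labelled Dnmt mGS 2, where the knock-down was not seen, so the main counts on that route are also given without it. Sox2 ranged from 1253 to 1303 in the lines labelled Sox2 mGS, against 4071 to 4627 in iPS lines, Pou5f1 (Oct4) ranged from 4649 to 5248 in Oct4 mGS against 4539 to 5234 in iPS lines, and Dmrt1 was at most 665 in every line outside GS. Sox2 in Sox2 mGS was thus below iPS lines, but above GS 2 and 3 (331 and 293). It was also below iPS lines in Oct4 mGS 1 and 2 (2289 and 1689), though not in Oct4 mGS 3 (4095). The Sox2 level does not tell whether Sox2 was added, and the Dmrt1 level does not set Dmrt mGS apart. Directions given for these routes therefore rest on their labels. Whether the probes read the viral genes is not known here. The 14 measured feeder and fibroblast markers summed to 33670 to 45480 for Sox2 mGS lines and to 19380 to 35470 for Oct4 mGS lines, against 9762 to 11160 for iPS lines. GS 1 summed to 21150 on the same list, while GS 2 and 3 gave 8095 and 6706. GS 1 also held more Sox2 (1807) than GS 2 and 3 (331 and 293) and more Pou5f1 (1000.0 against 365 and 381).

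Start-site sequence was available for 9 of the 10 genes (RefSeq, GRCm38.p6, another build than the mm9 of the array processing). It covered 250 bases before to 50 bases after the start, and was not available for Tex11. The palindrome CACGTG, the E-box that MAX and MGA bind, and TCCCGC on either strand, the core of the E2F6 site, were searched in it. Of 32851 such windows in the genome table, 7.2% held CACGTG, 20% held TCCCGC and 2.0% held both. Among the 11 windows of the 9 genes, 6 held CACGTG, 9 held TCCCGC and 6 held both. Hormad1 and Syce2 each gave 2 overlapping windows. Counted by gene, 5 of 9 held CACGTG and 7 held TCCCGC. The windows held 10 to 33 CpG dinucleotides, against a median of 7 over all windows. Both motifs contain a CpG, and the shares over all windows were not matched for CpG content. The stretches printed here are those of 6 genes whose levels the results turn on, in lower case with either motif in capitals, 5′ to 3′ along the gene's strand and ending before the start site. GCGGGA is TCCCGC read from the other strand.
Hormad1: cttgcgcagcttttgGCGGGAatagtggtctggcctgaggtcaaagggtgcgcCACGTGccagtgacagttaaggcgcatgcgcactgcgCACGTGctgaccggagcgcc
Sycp3: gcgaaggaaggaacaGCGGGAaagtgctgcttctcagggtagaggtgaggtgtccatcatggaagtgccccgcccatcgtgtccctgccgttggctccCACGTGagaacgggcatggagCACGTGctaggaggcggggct
Sycp1: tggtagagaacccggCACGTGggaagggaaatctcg
Smc1b: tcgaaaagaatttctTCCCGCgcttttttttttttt
Syce1: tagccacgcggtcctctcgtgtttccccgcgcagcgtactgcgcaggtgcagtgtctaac
Sycp2: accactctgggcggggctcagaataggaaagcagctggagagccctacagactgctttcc
The Hormad1 stretch lay at chr3:95559567-95559676, plus strand, and held the E-box in 2 copies beside 1 E2F6 core. Sycp3 (chr10:88459425-88459564, plus strand) held the same numbers of both. Sycp1 (chr3:102936174-102936209, minus strand) showed 1 E-box, and also held 1 TCCCGC that follows the start site and is not printed. Smc1b (chr15:85131984-85132019, minus strand) held 1 E2F6 core and no E-box. Syce1 (chr7:140787855-140787914, minus strand) and Sycp2 (chr2:178407659-178407718, minus strand) held neither in their windows, and the 60 bases before their start sites are shown. A match is a run of letters and was not tested as a binding site.

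Among the cohesin genes, Smc1b, the meiotic SMC1, stood at 1931, 1347 and 1392 in GS 1, 2 and 3. It stood at 755, 657 and 591 in Dnmt mGS 1, 2 and 3. In Dmrt mGS it was 460.2, 104 and 146, and in Oct4 mGS it was 52.2, 51.4 and 429.5, so a single line of each stood above the background level. Sox2 mGS gave 85.3, 55.2 and 45.2, spontaneous mGS 53.1 and 62.9, and iPS 1, 2 and 5 gave 129.6, 48.1 and 131, all below that level. ES R1 gave 500.1 while B6-6 and BRC1 gave 87.9 and 141. GS lines were the highest of all, the Dnmt mGS lines came next with no other line among them, and the remaining groups overlapped.

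Stag3, the subunit found only in meiotic cohesin, was at 4730, 4948 and 4547 in GS 1, 2 and 3. In Dnmt mGS it was 1393, 1122 and 820, in Dmrt mGS 894, 437 and 554, and in Sox2 mGS 639, 198 and 212. Oct4 mGS gave 216, 213 and 875, and spontaneous mGS 406 and 368. iPS 1, 2 and 5 gave 919, 481 and 541, and ES B6-6, BRC1 and R1 gave 730.3, 702 and 1412. Every line outside GS was below every GS line, and all 20 were above the background level. Rec8, the meiotic kleisin that closes the ring, ranged from 140.1 to 289 over all 23 lines, close to the background level. Its highest lines were Dnmt mGS 2 (289) and GS 1 (281), while GS 2 and 3 (188 and 185) lay among the pluripotent lines.

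Among the axis genes, Hormad1, which marks axes that have not yet synapsed, did not follow the split between GS and pluripotent cells. GS lines gave 1327, 1130.0 and 1137. Dnmt mGS lines gave 1693, 1743 and 1761 and Dmrt mGS lines 1858, 1144 and 1335. ES B6-6, BRC1 and R1 gave 1073, 1094 and 695, and iPS 1, 2 and 5 gave 1076, 454 and 959.7, while spontaneous mGS gave 469 and 509. Sox2 mGS lines gave 909, 279 and 498 and Oct4 mGS lines 562, 420.1 and 1566. All Dnmt mGS lines were above all GS lines, and the 2 spontaneous lines were below all of them. The second Hormad1 probe set showed the same order of routes at its own scale, with 865, 967 and 909.6 in Dnmt mGS against 264, 91.5 and 137 in Sox2 mGS. On that probe set Dmrt mGS 1 (774) was below all Dnmt mGS lines, whereas on the brighter one it was above them.

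Sycp2, the axis protein that pairs with SYCP3, was at 2577, 2720 and 2180 in GS 1, 2 and 3 and no line outside GS exceeded 152. All 20 of those lines were under the background level. Sycp3, which gives the axis its lateral element, varied within groups: GS 1 held 729.9 while GS 2 and 3 held 358 and 305. ES R1 held 824, the highest of all lines, with 285 in B6-6 and 105 in BRC1. The only other line outside GS above the background level was Dnmt mGS 2 at 216, and the remaining 17 lay between 52.8 and 140.4.

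Of the central genes, Sycp1, the transverse filament, was at 2784, 2882 and 2389 in GS 1, 2 and 3. Dnmt mGS lines gave 444, 592 and 361, Dmrt mGS lines 333, 278 and 261, and ES B6-6, BRC1 and R1 gave 255, 269.7 and 203. iPS 1, 2 and 5 gave 189, 152 and 215, and spontaneous mGS 166 and 177. Sox2 mGS lines gave 172, 108 and 88.2 and Oct4 mGS lines 99.2, 106 and 175. Dnmt mGS lines were above every other pluripotent line. Syce1, a central element protein, was at 1300, 1284 and 1284 in GS. It was 1240, 1086 and 619 in Dnmt mGS and 1137, 470.5 and 426 in Dmrt mGS, so that 3 induced lines came close to the GS level. Sox2 mGS lines gave 423, 145 and 174, Oct4 mGS 289, 277 and 525, iPS 403, 292 and 382, ES (B6-6, BRC1, R1) 449, 604 and 419, and spontaneous mGS 249.9 and 293.

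Syce2, the partner of TEX12 in the central element, ranged from 1983 (mGS 1) to 3042 (Oct4 mGS 3) over all 23 lines. GS lines gave 2842, 2417 and 2201, inside that range. Tex11, needed for normal crossing-over in the male germ line, was at 3640, 2760 and 2811 in GS. ES lines held 256 to 316, Dnmt mGS 129.6 to 236, Dmrt mGS 142 to 193, iPS 101 to 160.3, spontaneous mGS 112 and 129.9, Sox2 mGS 98.4 to 142 and Oct4 mGS 88.7 to 102. All 3 ES lines lay above every other line outside GS.

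**Figure D1:**
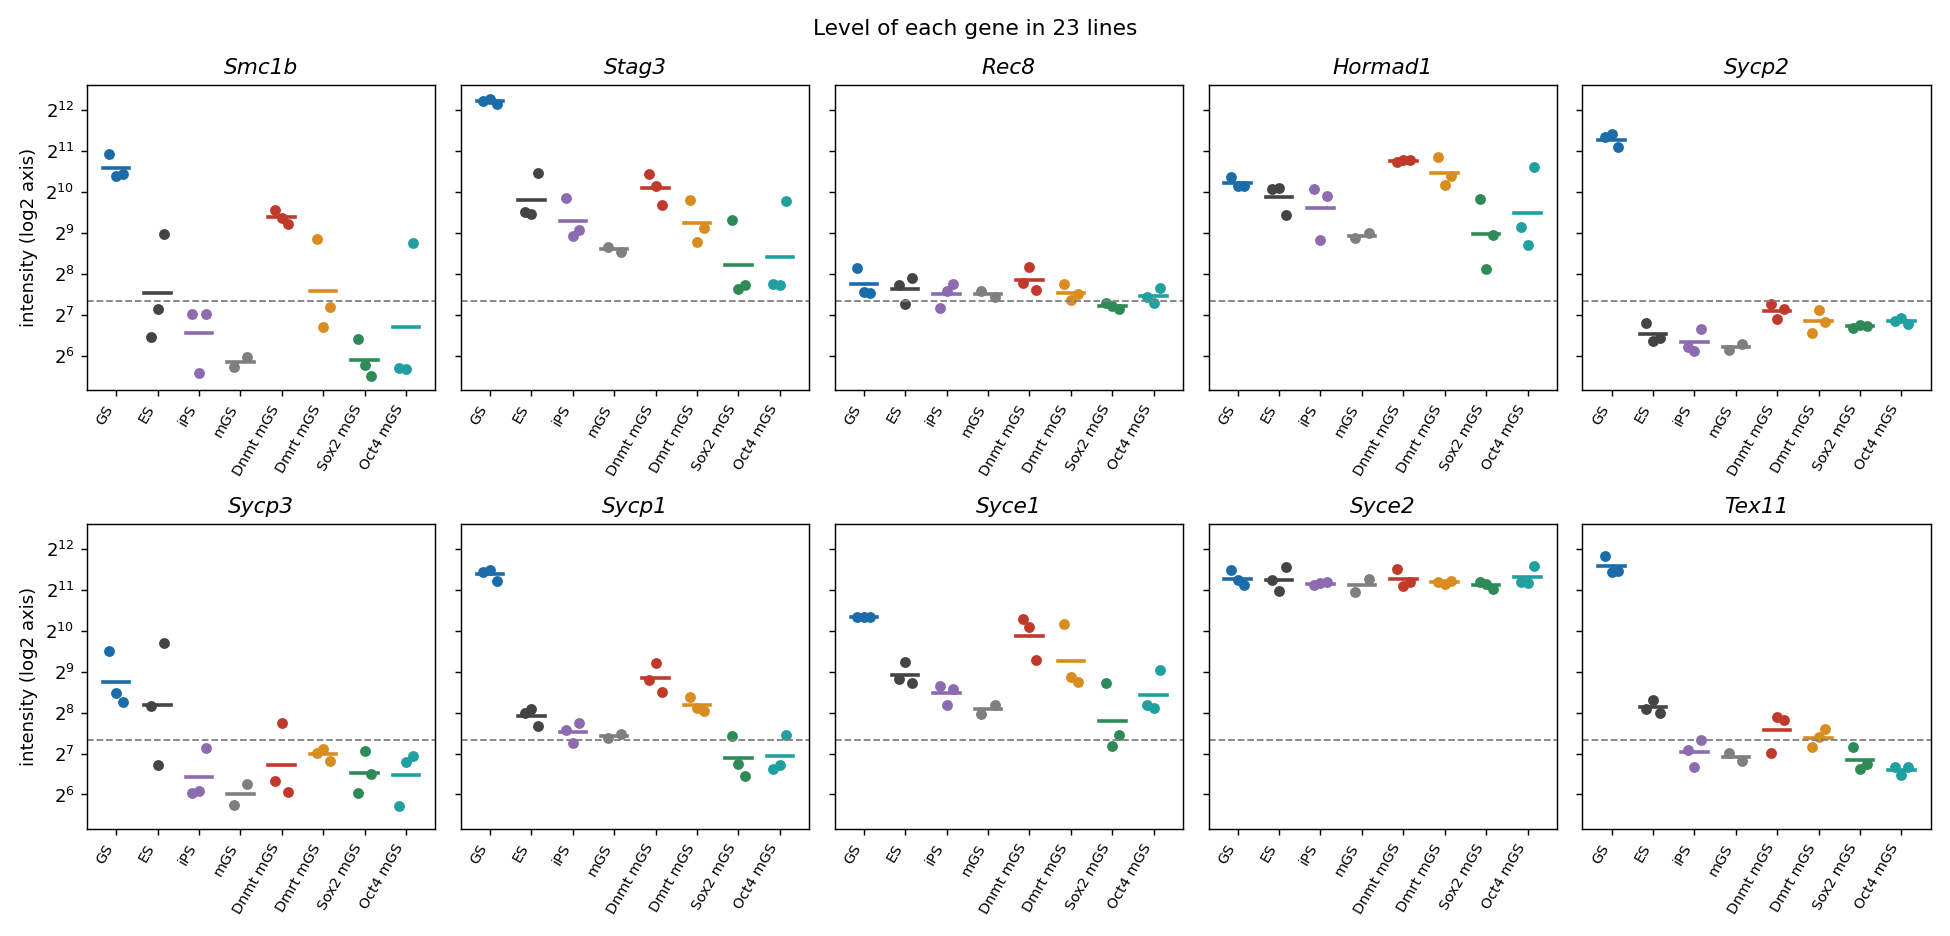
Intensity (y axis, log2 scale) of each of the 10 genes in 8 groups (x axis), with 1 point per line (mean of 2 cultures), a bar for the group's geometric mean and a dashed line at the background level of 161. Smc1b, Stag3, Sycp1, Sycp2 and Tex11 show GS lines above all others, Sycp2 is under the dashed line in all 20 other lines, and Syce2 stays between 1983 and 3042.

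The first comparison asked how far the meiotic genes differ between GS cells and pluripotent stem cells of another origin. Against ES cells, 6 of the 10 genes were higher in GS (limma, Benjamini-Hochberg adjusted p under 0.05), where 26.0% of all genes were called higher. The median log2 difference of the 10 was 1.91, against 0.09 over all genes. Sycp2 was at least 15.4-fold higher (adjusted p = 6.01e-14), Sycp1 11.1-fold (log2 difference 3.47 ± 0.24, limma's SE; adjusted p = 2.34e-09) and Tex11 10.9-fold (3.45 ± 0.21; adjusted p = 5.27e-10). Smc1b was 8.36-fold higher (3.06 ± 0.73, adjusted p = 0.00222), a value that rests on ES R1: without it the log2 difference was 3.79, with the remaining ES lines under the background level. Stag3 was higher 5.28-fold (adjusted p = 0.000667) and Syce1 2.66-fold (adjusted p = 0.00656). Sycp3 (0.56 ± 0.59), Hormad1 (0.35 ± 0.43), Rec8 (0.11 ± 0.20) and Syce2 (0.02 ± 0.14) did not pass. The 95% interval for Syce2 ran from -0.28 to 0.33, and that for Hormad1 from -0.56 to 1.26. Against iPS cells 7 were higher, where 35.5% of all genes were called higher. These were the same 6 genes and Sycp3, which was at least 2.67-fold higher (adjusted p = 0.00318). Fewer cells that carry a transcript and less transcript per cell cannot be told apart in these bulk samples.

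The second comparison set each pluripotent derivative against the GS cells it came from. In spontaneous mGS 8 of the 10 genes were lower, where 26.9% of all genes were called lower. Smc1b was at least 9.53-fold lower, Stag3 12.3-fold, Sycp1 15.6-fold, Tex11 at least 18.9-fold and Hormad1 2.45-fold (adjusted p = 0.0392). Hormad1 lost its call when any of the 5 lines was left out, with adjusted p between 0.0676 and 0.138. In Sox2 mGS 9 were lower, where 24.6% of all genes were, and Syce2 alone did not pass. In Dmrt mGS 7 were lower (24.1% of all genes), as were 7 in Oct4 mGS (22.6%), with Hormad1, Rec8 and Syce2 not passing in either route. In Dnmt mGS 5 were lower, where 30.0% of all genes were: Stag3, Sycp1, Sycp2, Sycp3 and Tex11. These comparisons share the 3 GS lines.

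In Dnmt mGS, Smc1b was at 664 against 1536 in GS (log2 difference -1.21 ± 0.73, adjusted p = 0.177), and it passed when only the Dnmt mGS and GS lines were fitted (adjusted p = 0.00219) or with the line as a random block (0.043). Syce1 was at 941 against 1289 (-0.45 ± 0.39, adjusted p = 0.345). Hormad1 was at 1732 against 1194 (0.54 ± 0.43, adjusted p = 0.314), and passed as higher in the fit of those 2 groups alone (adjusted p = 0.0053). Sycp1, by contrast, was 5.87-fold lower (-2.55 ± 0.24, adjusted p = 1.22e-07), Stag3 4.36-fold, Sycp2 at least 15.4-fold and Tex11 16-fold. Without the line labelled Dnmt mGS 2 the count was again 5. In Dmrt mGS, Sycp3 lost its call without GS 1 (log2 difference -1.38, adjusted p = 0.098) or Dmrt mGS 3 (adjusted p = 0.064), and Syce1 (-1.08 ± 0.39, adjusted p = 0.0336) lost it in 5 of 6 such fits. In Sox2 mGS, Rec8 (-0.53 ± 0.20, adjusted p = 0.0375) lost its call without GS 1, where the difference was -0.33, or without any of the 3 Sox2 lines, and Hormad1 (-1.25 ± 0.43, adjusted p = 0.0253) lost it without any GS line or without Sox2 mGS 2 or 3. In Oct4 mGS, Hormad1 (-0.74 ± 0.43) passed without Oct4 mGS 3 (-1.30, adjusted p = 0.0125).

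**Figure D2:**
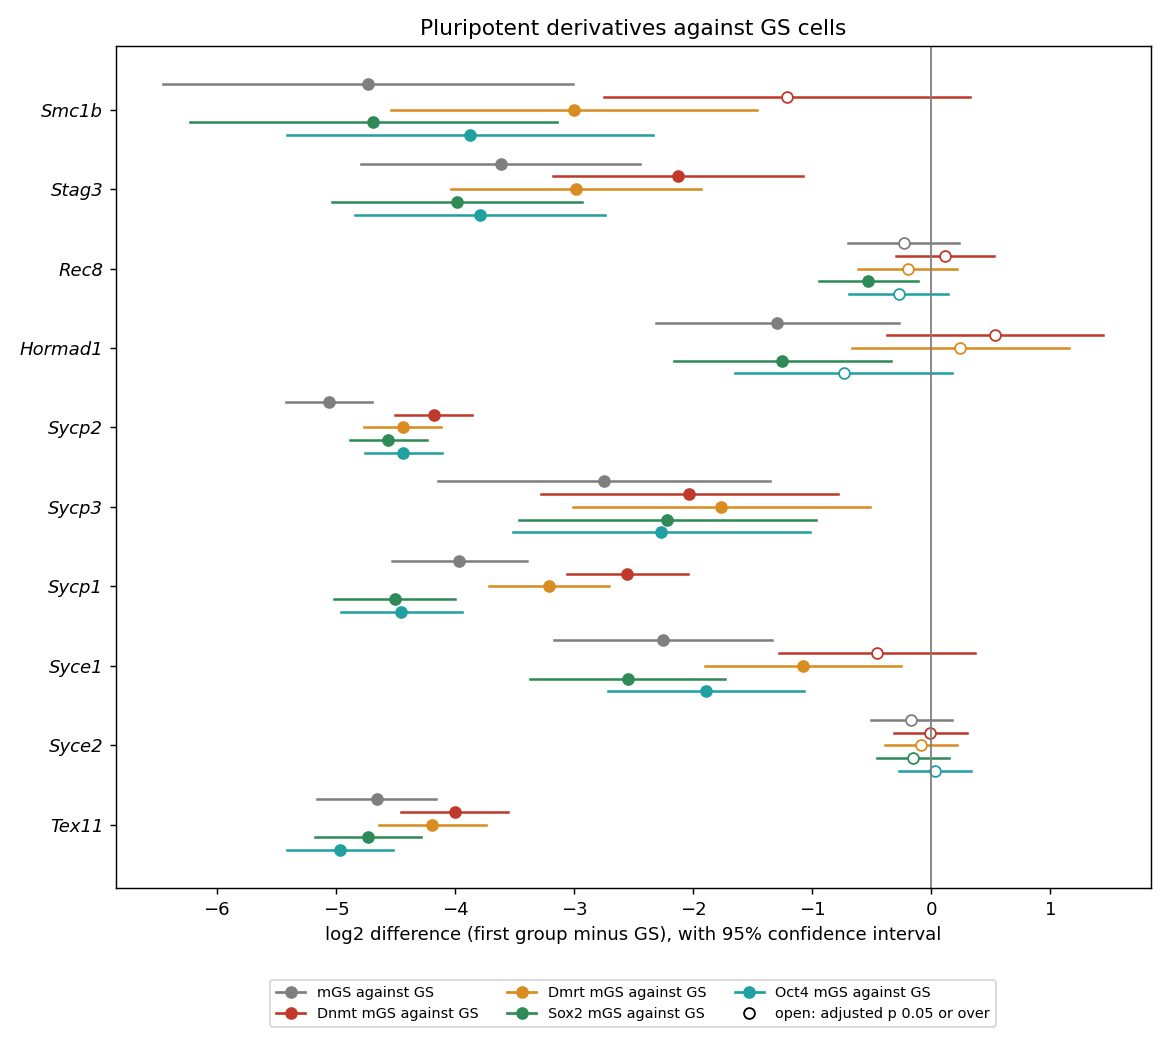
Log2 difference from GS (x axis) with its 95% confidence interval for each gene (y axis) in spontaneous mGS and the 4 induced routes, filled where limma's adjusted p is under 0.05. Sycp2 lies between -5.06 and -4.18 in all 5 groups and Syce2 near 0, while Smc1b, Syce1 and Hormad1 of Dnmt mGS are open points nearer to 0 than those of the spontaneous lines.

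The third comparison set pluripotent cells of germline origin against iPS cells of the same strain. iPS cells carried retroviral factors, and the induced routes a lentiviral p53 knock-down with another knock-down or factor. Origin and these treatments therefore cannot be told apart here. For spontaneous mGS 0 of the 10 genes passed limma's adjusted p, as did 0% of all genes; at an unadjusted p under 0.05, 225 genes and 0 of the 10 passed. The intervals were wide, for example from -2.41 to 1.03 for Smc1b and from -1.69 to 0.35 for Hormad1. For Dnmt mGS 4 were higher, where 4.18% of all genes were called higher. Smc1b was at least 4.12-fold higher (2.83 ± 0.73, adjusted p = 0.028), Sycp1 2.48-fold (1.31 ± 0.24, adjusted p = 0.00549) and Syce1 2.65-fold (1.41 ± 0.39, adjusted p = 0.0381). Sycp2 passed too (0.77 ± 0.15, adjusted p = 0.00809), with both groups under the background level. Hormad1 (1.16 ± 0.43, adjusted p = 0.116, and 0.00702 with the line as a random block) and Stag3 (0.81 ± 0.50, adjusted p = 0.369) did not pass.

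Sycp1 kept its call whichever line was left out. Smc1b lost it without iPS 1 (adjusted p = 0.0599), iPS 2 (0.144), Dnmt mGS 1 (0.102) or Dnmt mGS 2 (0.0709), and its difference stayed between 2.35 and 3.07. Syce1 lost its call without any iPS line or without Dnmt mGS 1 or 2 (differences from 1.21 to 1.50, adjusted p from 0.0796 to 0.168), and Sycp2 without iPS 2 (0.67, adjusted p = 0.0566). Without the line labelled Dnmt mGS 2, 2 of the genes passed, Sycp1 (1.12, adjusted p = 0.0238) and Sycp2 (0.87, adjusted p = 0.00972). For Dmrt mGS 0 passed by limma (0.848% of all genes, in either direction), with 2 at an unadjusted p under 0.05, and for Sox2 mGS also 0 (23.6% of all genes), with 3 at that p. Without Sox2 mGS 1, Stag3 (-1.60), Sycp1 (-0.91) and Syce1 (-1.16) passed as lower than in iPS. For Oct4 mGS only Sycp2 passed as higher (0.52 ± 0.15, adjusted p = 0.0357; 10.4% of all genes), again with both groups under the background level. Without Oct4 mGS 3, Stag3 (-1.53, adjusted p = 0.0246) and Sycp1 (-0.84, adjusted p = 0.0238) passed as lower than in iPS. Sycp2 lost its call without iPS 1 or 2 or Oct4 mGS 1 or 2, and on centred or quantile-normalised arrays (adjusted p = 0.102 and 0.136). In iPS against ES 1 gene passed as lower, where 0.336% of all genes did. This was Tex11, which was at least 1.73-fold higher in ES (log2 difference -1.10 ± 0.21, adjusted p = 0.0224). That call was lost when B6-6, BRC1, iPS 1 or iPS 2 was left out (adjusted p from 0.0619 to 0.124).

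The fourth comparison set each induced route against the equal-weighted mean of the other 3. In Dnmt mGS 6 of the 10 genes were higher, where 8.85% of all genes were called higher, and the median difference of the 10 was 0.87 against -0.06 over all genes. Smc1b was at least 4.12-fold higher (2.64 ± 0.60, adjusted p = 0.00908), Sycp1 2.83-fold (1.50 ± 0.20, adjusted p = 0.000522) and Stag3 2.75-fold (1.46 ± 0.41, adjusted p = 0.022). Syce1 was 2.61-fold higher (adjusted p = 0.00981), Hormad1 2.17-fold (adjusted p = 0.0365) and Tex11 at least 1.18-fold (0.63 ± 0.17, adjusted p = 0.0213). No line of another route reached the Dnmt mGS lines in Smc1b or Sycp1, whereas Dmrt mGS 1 reached them in Stag3 and Syce1, and Oct4 mGS 3 did in Stag3. Dmrt mGS 1 (1858) was above all of them in Hormad1, but below all of them on the second Hormad1 probe set (774 against 865, 967 and 909.6). In Tex11 the lowest Dnmt mGS line, Dnmt mGS 1 (129.6), was under the background level and below all Dmrt mGS lines (141.9 to 193.5). Sycp1 kept its call whichever line was left out, and Smc1b lost it only without Dnmt mGS 1 (2.55, adjusted p = 0.0636). Stag3 lost it without Dnmt mGS 1 (adjusted p = 0.133) or 2 (0.0796), Syce1 without the same lines (0.0841 and 0.0501), Tex11 without Dnmt mGS 2 (0.138) or 3 (0.0767), and Hormad1 in 9 of 12 such fits (adjusted p from 0.0537 to 0.132). Without the line labelled Dnmt mGS 2 the count was 2, Smc1b (2.65, adjusted p = 0.0357) and Sycp1 (1.31, adjusted p = 0.00351).

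In Sox2 mGS 4 genes were lower than in the other routes, where 8.16% of all genes were called lower: Smc1b (at least 1.47-fold, adjusted p = 0.0344), Sycp1 (at least 1.57-fold, adjusted p = 0.00215), Syce1 (2.65-fold, adjusted p = 0.00883) and Hormad1 (2.41-fold, adjusted p = 0.0248). Stag3 passed too without Sox2 mGS 1 (-1.57, adjusted p = 0.0333). With the line as a random block, a fit that can be too lenient, Stag3 and Rec8 passed (adjusted p = 0.0072 and 0.0268). Syce1 and Hormad1 lost their calls without Sox2 mGS 2 or 3, and Smc1b without any Sox2 line, Dnmt mGS 1 or Dmrt mGS 1 (adjusted p from 0.0507 to 0.174). In Oct4 mGS Sycp1 was lower (at least 1.55-fold, adjusted p = 0.0273; 0.251% of all genes), and it lost its call without Oct4 mGS 1 or 2 (adjusted p = 0.218 and 0.105). Without Oct4 mGS 3, Smc1b (-1.92, adjusted p = 0.0492) and Stag3 (-1.43, adjusted p = 0.0403) passed as lower. In Dmrt mGS 0 passed by limma (0.316% of all genes, in either direction), with 2 at an unadjusted p under 0.05. The lower levels in Sox2 mGS stood beside feeder sums of 33670 to 45480 and pluripotency sums of 12380 to 20910, against 10730 to 31840 and 27120 to 34390 in Dnmt mGS. The part of feeder cells in these differences was not tested.

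**Figure D3:**
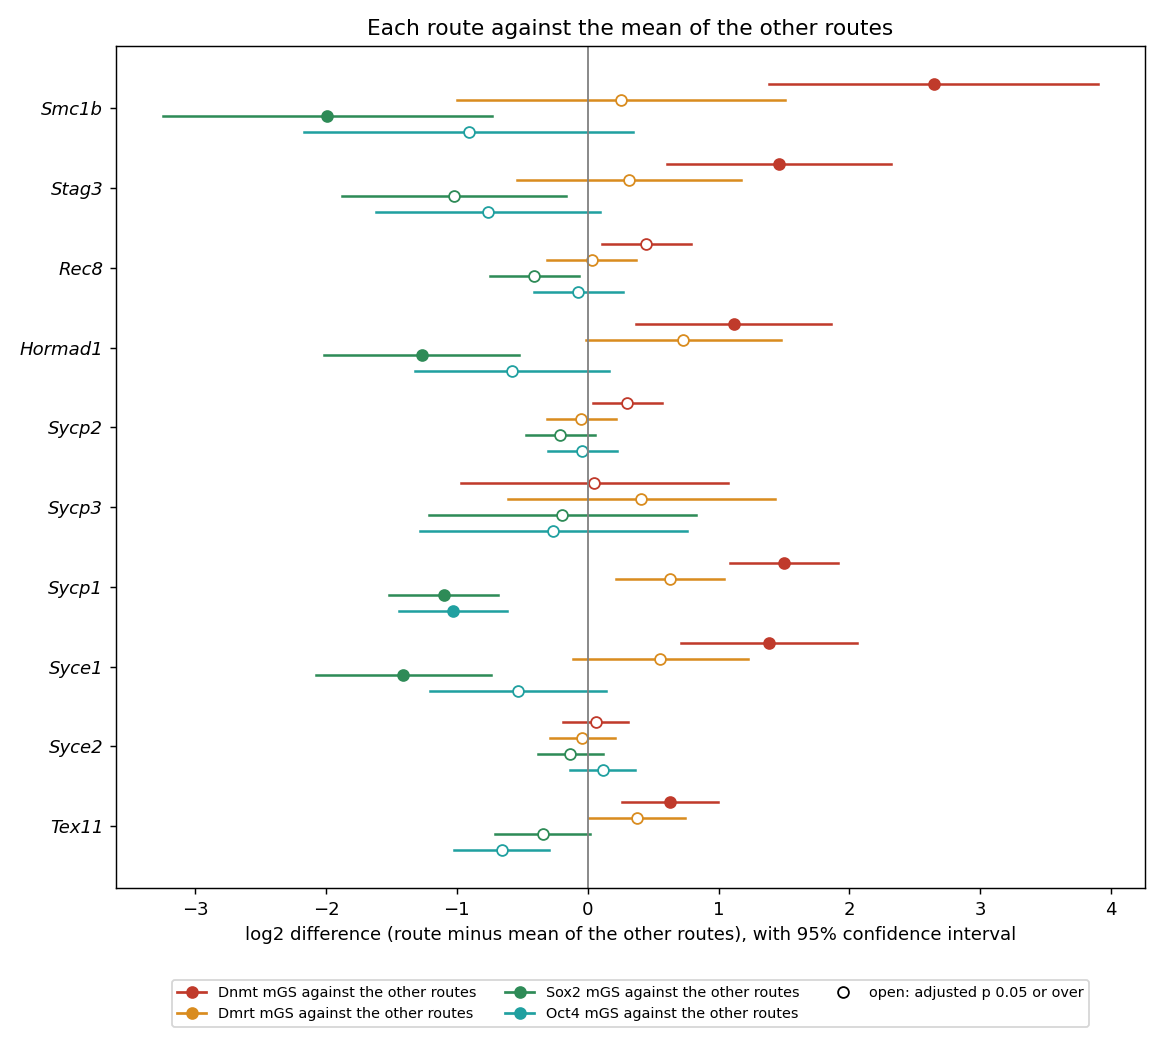
Log2 difference of each route from the mean of the other 3 routes (x axis) with its 95% confidence interval, for each gene (y axis), filled where limma's adjusted p is under 0.05. Dnmt mGS has 6 filled points to the right of 0, from Tex11 at 0.63 to Smc1b at 2.64, and Sox2 mGS has 4 to the left.

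Outside GS, 5 of the genes varied together from line to line, a pattern noted after their values were seen. Over these 20 lines the correlations of log2 levels among Smc1b, Stag3, Sycp1, Syce1 and Hormad1 ran from 0.78 to 0.90. Smc1b was above the background level in only 6 of the 20 lines, Sycp1 in 15 and Syce1 in 19. The correlations and ranks of these 3 genes therefore rest in part on levels that are bounds. The lines share groups, strain and array processing, so the values are a description. Dnmt mGS 1, 2 and 3 and Dmrt mGS 1 filled the first 4 ranks in Sycp1, Syce1 and Hormad1. Dmrt mGS 1 and Oct4 mGS 3 stood apart from their sister lines: Dmrt mGS 1 ranked 5, 5, 4, 2 and 1 of 20 in Smc1b, Stag3, Sycp1, Syce1 and Hormad1, and Oct4 mGS 3 ranked 6, 6, 13, 6 and 5. The Hormad1 ranks are those of the brighter probe set, and on the second one Dmrt mGS 1 (774) was below all Dnmt mGS lines. Sox2 mGS 2 and 3, Oct4 mGS 1 and 2 and spontaneous mGS 1 were at rank 14 or lower in all 5 genes. In the same order of genes, iPS 2 ranked 19, 13, 16, 15 and 18, and spontaneous mGS 2 ranked 14, 16, 12, 14 and 15. ES R1 ranked 1 in Stag3 and Sycp3 and 4 in Smc1b, but 10 in Sycp1 and 11 in Syce1.

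The feeder sum was 11260 in Dmrt mGS 1 against 24980 and 21860 in Dmrt mGS 2 and 3, and 19380 in Oct4 mGS 3 against 35470 and 28350 in Oct4 mGS 1 and 2. iPS 2 (10550) and mGS 1 (9770), with low feeder sums, had Smc1b under the background level (48.1 and 53.1). Dnmt mGS 3, with a sum of 31840, had it at 591. These are single lines and 1 gene, and the part of feeder cells in the line differences was not tested. Dnmt1 was 620.0 and 647 in Dnmt mGS 1 and 3 and 2752 in the line labelled Dnmt mGS 2, whose Smc1b, Stag3, Sycp1, Syce1 and Hormad1 all ranked 1 to 3. The correlations of Syce2 with these 5 genes ran from 0.17 (Sycp1) to 0.56 (Smc1b), and those of Sycp3 from 0.14 (Hormad1) to 0.39 (Stag3). Rec8 (0.50 to 0.69) and Tex11 (0.47 to 0.66) came closer to the 5 genes. Levels of Sycp3, Rec8 and Tex11 were in part under the background level. The correlations of Sycp2 are not read here, since all 20 lines were under that level. The 2 cultures of a line differed by a median of 0.06 (Stag3) to 0.16 (Smc1b and Sycp1) on the log2 scale in these 5 genes, and their lines outside GS spanned 2.74 for Hormad1 and 2.83 for Stag3. Counted from the background level, since their lowest lines were under it, the span was at least 1.88 for Sycp1, 2.23 for Smc1b and 2.94 for Syce1.

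**Figure D4:**
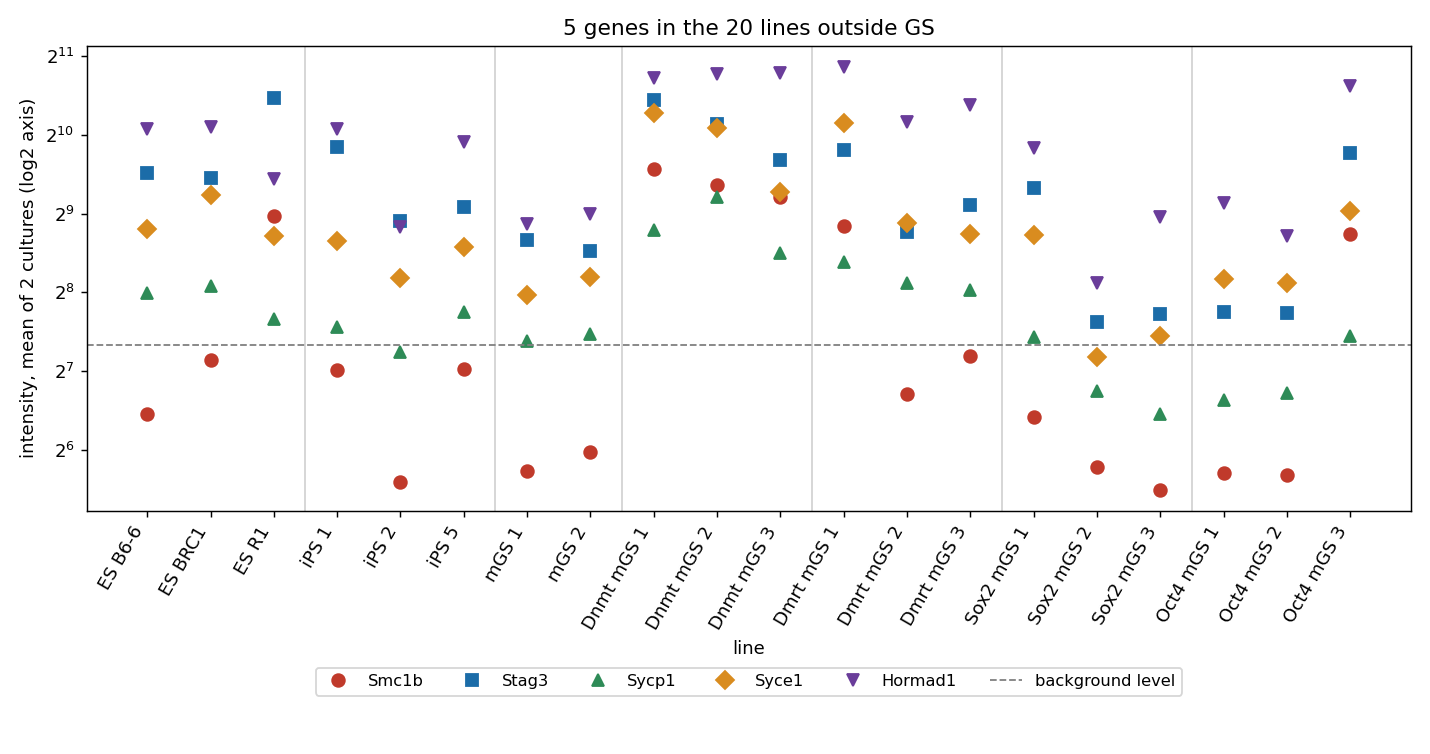
Intensity (y axis, log2 scale, mean of 2 cultures) of Smc1b, Stag3, Sycp1, Syce1 and Hormad1 in each of the 20 lines outside GS (x axis, grouped by cell type), with the background level of 161 dashed. The 5 symbols are high together in the 3 Dnmt mGS lines and Dmrt mGS 1. They are low together in Sox2 mGS 2 and 3, Oct4 mGS 1 and 2 and spontaneous mGS 1. In Oct4 mGS 3 all but Sycp1 (175) are high.

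Across all 23 lines, the genes outside the set whose log2 levels were most like the mean standardised profile of the 10 were Ddhd2 (r = 0.941), Nkiras1 (0.937), M1ap (0.936), Rbm44 (0.936) and Dazl (0.934). M1ap, known as a meiosis-associated gene, had a mean of 2447 in GS, 1078 in Dnmt mGS and 239 to 515 in the other groups. Dazl, an RNA-binding protein of germ cells, was at 15730 in GS, 1208 in Dnmt mGS and 1403 in Dmrt mGS 1, against 378 and 392 in Dmrt mGS 3 and 2. Over the 20 lines outside GS, the nearest genes to Smc1b were Tuba3a (r = 0.939), Etfb (0.937) and Tulp2 (0.932). Tuba3a, a testis alpha-tubulin with near-identical copies that may share probes, was at 10270 in GS, 3118 in Dnmt mGS and 476 to 1314 elsewhere. Etfb and Tulp2 were instead lowest in GS. Etfb had a mean of 687 in GS and 2154 to 3436 in the other groups. Tulp2 was under the background level in GS (121) and at 176 to 318 in the other groups. The nearest to Sycp1 were Ndufb9 (0.908), Timm8a2 (0.907) and Gm10785 (0.904), and to Syce1 A4galt (0.940), Ndufb9 (0.932) and Tyk2 (0.917). A4galt too was lowest in GS, under the background level there (107) and at 393 to 903 in the other groups. Levels of Smc1b, Sycp1 and Syce1 under the background level enter these correlations. These were the highest of the correlations with all genes, over lines that share groups and array processing.

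The remaining genes of the same structures gave a mixed picture. Over all genes, 26.0% were called higher and 17.2% lower in GS against ES, 4.18% higher and 2.68% lower in Dnmt mGS against iPS, and 8.85% higher and 10.4% lower in Dnmt mGS against the other routes. Of 10 further synaptonemal complex and axis genes 6 were measured, and in GS against ES 3 were higher and 0 lower, with a median over the 6 of 0.86 against 0.09 over all genes. Tex12 was at least 7.10-fold higher and Iho1 at least 2.91-fold, both with ES under the background level, and 4930447C04Rik (Six6os1) was 2.56-fold higher (1.35 ± 0.28). In Dnmt mGS against iPS 3 of 6 were higher, with a median of 0.81 against 0.05 over all genes. Hormad2 was at least 2.58-fold higher and Tex12 at least 1.10-fold, with iPS under the background level, and 4930447C04Rik was 2.17-fold higher (1.12 ± 0.28). Only Tex12 of these passed without the line labelled Dnmt mGS 2 (adjusted p = 0.0175), with Hormad2 at an adjusted p of 0.0781 and 4930447C04Rik at 0.105. Hormad2, the sister of HORMAD1, was at 328, 668 and 328 in Dnmt mGS 1, 2 and 3 and 548 in Dmrt mGS 1, against 112 and 133 in Dmrt mGS 2 and 3 and 45.5 to 65.0 in Sox2 mGS.

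Of 6 genes that tether meiotic telomeres to the nuclear envelope 5 were measured. Majin, a membrane anchor of that complex, was at 683, 494 and 369.8 in Dnmt mGS 1, 2 and 3, above 170.3, 227 and 191 in GS 1, 2 and 3 (log2 difference 1.36 ± 0.39, limma's adjusted p = 0.00737). It was also 464 in Dmrt mGS 1 and 325 in Oct4 mGS 3, the lines that stood apart above, and 102 to 178 in the other 15 pluripotent lines. In Dnmt mGS against the other routes 8.85% of all genes were called higher and 10.4% lower. There 4 of 5 of these genes were higher and 0 lower, with a median of 0.56 against -0.06 over all genes. Majin was at least 3.10-fold higher, Sun1 1.60-fold (0.68 ± 0.21) and Terb2 at least 1.08-fold. In all 4 called genes, Kash5 included, the Dnmt mGS lines overlapped those of other routes. Majin (1.65, adjusted p = 0.0178) and Kash5 (0.31, adjusted p = 0.0463) were the 2 of the 5 that passed without the line labelled Dnmt mGS 2.

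The other cohesin genes moved in both directions. Of 18 such genes 7 were higher and 5 lower in GS against ES (median 0.07, all genes 0.09), where 26.0% of all genes were higher and 17.2% lower. In Dnmt mGS against iPS 0 of 18 passed by limma, with 3 at an unadjusted p under 0.05 (median 0.05, all genes 0.05). Without the line labelled Dnmt mGS 2, Rad21 (-0.51, adjusted p = 0.00823) and Smc1a (-0.39, adjusted p = 0.0424) passed as lower there. Rad21l, the second meiotic kleisin, stood at 716 in GS and at group means of 48.1 to 99.7 elsewhere, all below the background level, so that GS was at least 4.44-fold higher than ES. The mitotic paralogues of the meiotic subunits were present in every group: Smc1a had means of 1162 (GS) to 1520 (iPS), Stag1 of 758 (Oct4 mGS) to 1219 (GS), Stag2 of 578 (Dnmt mGS) to 1071 (Sox2 mGS) and Rad21 of 2554 (Dnmt mGS) to 4092 (GS). In GS against ES, Rad21 (0.45 ± 0.11) and Stag1 (0.59 ± 0.16) were higher and Smc1a (-0.36 ± 0.10) was lower.

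Of 8 genes of meiotic entry and recombination 7 were measured. In GS against ES 4 were higher and 0 lower (median 0.63, all genes 0.09), where 26.0% of all genes were higher and 17.2% lower. Dazl was 19.0-fold higher (4.25 ± 0.51) and Spo11, with ES under the background level, at least 3.70-fold, while Prdm9 passed with all its group means under that level. Stra8, the retinoic acid target that starts meiosis, had means of 209 in GS and 101 to 155 in the other groups. In Dnmt mGS against iPS, Meioc (1.87 ± 0.40) and Stra8 (0.62 ± 0.17) were higher and Ythdc2 (-0.53 ± 0.13) was lower, with Stra8 under the background level in both group means. Without the line labelled Dnmt mGS 2, Meioc (1.97, adjusted p = 0.0244) and Ythdc2 (-0.55, adjusted p = 0.0476) passed and Stra8 did not (adjusted p = 0.184). The 11 markers of spermatocytes and spermatids summed to between 2179 and 2397 in GS lines and between 1408 and 1741 elsewhere. Of these, 3 were higher and 0 lower in GS against ES, and 7 were higher and 1 lower against iPS, where 35.5% of all genes were higher and 18.5% lower. Piwil1 was at 598 in GS and at most 152 in the other group means, while Prm1, Prm2 and Tnp2 had group means of 178 to 228 in all 8 groups, and the acrosomal gene Acrv1 and the spermatid genes Tnp1 and Spata16 were under the background level in every group. Ldhc, a lactate dehydrogenase of spermatocytes and sperm, was at 283, 372 and 390.3 in Dnmt mGS 1, 2 and 3. Its group means were 316 in GS, 339.9 in ES, 176 in iPS and 117 in Sox2 mGS, so ES cells held a like level. Ldhc was 1.96-fold higher in Dnmt mGS than in iPS (0.97 ± 0.21, limma's adjusted p = 0.0132). It is named here after its values were seen. The part of more mature germ cells in the GS and Dnmt mGS levels was not tested beyond these values.

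Of 12 genes that repress germline genes, 3 were higher and 4 lower in GS against ES (median -0.04, all genes 0.09), where 26.0% of all genes were higher and 17.2% lower. E2f6 was at 1891 in GS, 489 in ES, 499.6 in iPS, 549.6 in spontaneous mGS, 634 in Dnmt mGS and 633 in Dmrt mGS. Its means were higher for Sox2 mGS (1112) and Oct4 mGS (955). In Dnmt mGS against the other routes Dnmt3b (-1.43 ± 0.43), Dnmt1 (-1.07 ± 0.28) and E2f6 (-0.47 ± 0.15) were lower and Mga (0.30 ± 0.10) was higher. Of these, only Dnmt1, the knock-down target of this route, passed without the line labelled Dnmt mGS 2 (-1.77, limma's adjusted p = 1.66e-09). That line was set apart for its high Dnmt1, so the Dnmt1 value follows from the choice of line and is not a result on repressors. In Sox2 mGS against the other routes, where 5.99% of all genes were higher, E2f6 (0.61 ± 0.15) was higher and Ehmt2 (-0.55 ± 0.09) and L3mbtl2 (-0.45 ± 0.09) were lower. Against iPS 0 of the 12 passed in Dnmt mGS by limma, with 3 at an unadjusted p under 0.05. Without the line labelled Dnmt mGS 2 only Dnmt1 passed (-1.73, adjusted p = 3.12e-08), which again follows from the choice of line.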

How the data were processed

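RNA of 46 cultures was measured on Affymetrix whole-transcript arrays. The deposited values are linear intensities (16 to 27420) in a table of the authors; how they were scaled is not stated by the labels, and the submitters' processing notes name mm9. Feeder cells had been depleted on gelatin, per the labels' protocols. The second culture of ES R1 is called R2 in its description and was taken as R1, as in its title.

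Probe sets with 1 gene symbol (21789 of 28856) gave 19938 genes, the brightest probe set standing for each. Log2 intensities of the 2 cultures were averaged per line. The labels do not say how independent the lines are, so p-values measure the spread between lines. One limma fit (limma 3.58.1, R 4.3.3, 15 residual degrees of freedom) gave 17 comparisons, each adjusted by Benjamini-Hochberg over all genes at 0.05. A fold against a group under the background level was taken against that level and given as at least that fold. The number of arrays limits the precision.

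The genes and lists were chosen with earlier results of these data known. The text names all 10 genes and, with a few exceptions such as Kash5 and Ldhc, at most 3 called genes of a list per comparison. The mitotic paralogues, the targeted genes and the genes most alike are named too. Other settings changed the normalization, filter, offset, replicate unit and lines used. Code was tested on simulated data (Python 3.11.15, pandas 2.3.3, numpy 2.4.6, matplotlib 3.10.9, statmod 1.5.0).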

Additional observations from a re-analysis of the deposited data

Results flagged for a closer look

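The induced routes differed from each other in 11 cases, by the limma contrast of a route with the mean of the other 3 routes. In Dnmt mGS the log2 differences were 2.64 for Smc1b, 1.46 for Stag3, 1.50 for Sycp1, 1.39 for Syce1, 1.12 for Hormad1 and 0.63 for Tex11. In Sox2 mGS they were -1.99 for Smc1b, -1.10 for Sycp1, -1.41 for Syce1 and -1.27 for Hormad1, and in Oct4 mGS -1.03 for Sycp1. Each contrast uses the lines of the others, so these values are not independent. No test for a single outlying line was made, since groups held 2 or 3 lines.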

How the results depend on the processing

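Of the 170 results for single genes 66 were called, and 0 changed direction while called under any setting. When 1 line was left out, 47 of the 66 kept their call in every fit and 19 lost it in at least 1. In the other settings 13 lost it. The count of genes called with 1 line left out was 6 to 6 for GS against ES, 7 to 7 for GS against iPS, and, against GS, 7 to 7 for spontaneous mGS, 5 to 5 for Dnmt mGS, 5 to 7 for Dmrt mGS, 7 to 8 for Sox2 mGS and 7 to 8 for Oct4 mGS. Against iPS it was 0 to 0 for spontaneous and Dmrt mGS, 1 to 4 for Dnmt mGS, 0 to 3 for Sox2 mGS and 0 to 3 for Oct4 mGS. It was 0 to 1 for iPS against ES, and against the other routes 2 to 7 for Dnmt mGS, 0 to 0 for Dmrt mGS, 1 to 4 for Sox2 mGS and 0 to 3 for Oct4 mGS. With 46 arrays as independent samples, which counts cultures as lines, it was 7 for Dnmt mGS and 4 each for Dmrt, Sox2 and Oct4 mGS against iPS, 2 for iPS against ES, and against the other routes 2 for Dmrt, 7 for Sox2 and 3 for Oct4 mGS. With the line as a random block it was 1 for Sox2 mGS against iPS, 2 for iPS against ES and 2 for Oct4 mGS against the other routes, and it also rose to 6 for Dnmt mGS and 8 for Oct4 mGS against GS, 5 for Dnmt mGS against iPS, while against the other routes it became 7 (Dnmt mGS) and 6 (Sox2 mGS). Adding the culture number as a replicate block gave the same count as the line block alone in all 17 comparisons. Cultures share only a number. Both block fits use 1 culture correlation for all genes, so their counts can be too high. With the 40% dimmest genes left out it was 3 for Dnmt mGS against GS and 0 for Oct4 mGS against iPS, since dim genes were not tested. On quantile-normalised or centred arrays it was 1 for Sox2 mGS and 0 for Oct4 mGS against iPS, and with an offset of 64 it was 0 for the latter. With only the groups compared in the fit, so fewer lines, it was 0 for Oct4 mGS against iPS and for iPS against ES, and against the other routes 2 for Dnmt, 1 for Sox2 and 0 for Oct4 mGS. Except where stated, the cause was not tested.

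Over all genes, fits of the compared groups alone and of 46 arrays moved the count called from 1369 to 881 and 5189 for Dnmt mGS against iPS, from 169 to 7 and 3930 for Dmrt mGS against iPS, from 2749 to 962 and 7926 for Oct4 mGS against iPS and from 125 to 22 and 2318 for iPS against ES. For Sox2 mGS against iPS the range was 3497 to 9162 around 4708, and against the other routes 1835 to 8946 around 3830 for Dnmt, 8 to 1741 around 63 for Dmrt, 1596 to 7319 around 2822 for Sox2 and 5 to 3365 around 212 for Oct4 mGS. Centring moved the median difference of all genes by -0.15 for Sox2 mGS and for Oct4 mGS against iPS. It moved the genes called higher and lower from 834 and 535 to 448 and 844 for Dnmt mGS against iPS (587 and 635 after quantile normalization), from 71 and 98 to 46 and 300 for Dmrt mGS, from 2869 and 1839 to 1683 and 2590 for Sox2 mGS and from 2066 and 683 to 550 and 1006 for Oct4 mGS against iPS (983 and 820 after quantile normalization). For iPS against ES it moved them from 58 and 67 to 77 and 55, and for Oct4 mGS against the other routes from 162 and 50 to 36 and 30 (90 and 66 after quantile normalization). Signal over background limits Smc1b, Rec8, Sycp2, Sycp3 and Tex11 outside GS. It also limits Sycp1 in Sox2 mGS and Oct4 mGS, whose means of 118 and 122 were under the background level.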
